A study of Mus musculus with 3 samples.

Results

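Cep170b, a gene on the plus strand of mouse chromosome 12 (ENSMUSG00000072825), carried one of the longest rows of 5-methylcytosine (m5C) sites found in oocyte mRNA. All sites assigned to this gene in the 3 site lists were taken, 19 of 15910 in germinal vesicle (GV) oocytes, 27 of 20694 in metaphase II (MII) oocytes and 6 of 24996 in 1-cell embryos. They made up 28 distinct sites of 40298. The gene was selected on these numbers of sites (many in the oocytes and few in the embryo), which are therefore given as a description with no test. Only 1 library was available per stage, so no value has a replicate check.

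The libraries came from wild-type C57BL/6J mice, and RNA bisulfite sequencing was used throughout, in which unmethylated C is read as T while m5C stays C. GV oocytes, arrested before meiotic resumption, came from females of 7 to 8 weeks, 48 h after PMSG (pregnant mare serum gonadotrophin, 10 IU). MII oocytes, matured and ready for fertilization, came from females of 7 to 8 weeks given 10 IU of PMSG and, after 44 to 48 h, 5 IU of human chorionic gonadotrophin (hCG), with collection after 12 h. The 1-cell embryos came from C57BL/6J females of 7 to 8 weeks mated with C57BL/6J males, given PMSG and hCG at 5 IU each with the same delay between them, and were collected 24 h after hCG. The doses and ages are those of the labels. For MII oocytes the study's methods give another dose of hCG, and for the embryos they refer back to the hormone treatment of the oocyte donors. They also give the oocyte donors an age of 7 to 10 weeks. Zonae were removed in each group, and each library is a pool. The series description names about 200 embryos, while the study's methods give that number for zebrafish and frogs and none for mouse. The size of the mouse oocyte and embryo pools is therefore not certain. The labels name polyadenylated RNA and the methods RNA depleted of ribosomal RNA, and the conversion text differs between oocytes and embryos, so stage, library and batch cannot be told apart.

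Among 20 oocyte marker genes, 10, 13 and 15 had a listed site in GV oocytes, MII oocytes and 1-cell embryos, among them Gdf9, Bmp15, Zp3, Btg4 and Npm2 at every stage. Among 20 granulosa and cumulus markers these numbers were 1, 2 and 2, and reads at their sites summed to 125, 145 and 447. Those with a site were Nr5a2 in GV oocytes, Amh and Cyp19a1 in MII oocytes, and Star and Nr5a2 in 1-cell embryos, and the others, Foxl2 and Fshr among them, had none. Such lists show called sites alone, so a gene without a site may still be expressed.

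Cep170b encodes a paralogue of Cep170, a microtubule-binding protein of the appendages of the mature centriole, and both proteins carry a forkhead-associated domain. Mouse oocytes lose their centrioles and build the meiotic spindle from other microtubule-organizing centres, so that many centrosomal proteins work there in a setting without centrioles. The main mRNA m5C methyltransferases are NSUN2 and NSUN6, and sites are sorted by sequence. NSUN6 acts on C within CUCNA (Type II), and C with many G just after them are typical of NSUN2 (Type I).

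The sites are shown first by sequence, as 21 bases of the transcript with the C in the middle, on GRCm38 and the plus strand. Each window was the same in the spliced transcript and the genome. Capitals mark the methylated C and the 4 bases after it. The first set holds the 5 sites with the highest MII oocyte level, the strongest of the transcript.
site at 112744841 (chr12:112744831-112744851): cttcccacagCGGGCcaactg
site at 112743019 (chr12:112743009-112743029): tggctggagaCGGGGactcac
site at 112745268 (chr12:112745258-112745278): ccgcttaggtCCAGGcccagc
site at 112737585 (chr12:112737575-112737595): gcctcttggtCCCAGgttctc
site at 112740911 (chr12:112740901-112740921): cagctctaccCGGGCtcgctc

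The second set holds the other sites whose level differed between the oocyte libraries. With the site at 112737585 above, they are the 5 sites past the test.
site at 112736189 (chr12:112736179-112736199): cagagcgactCGGAGgacccc
site at 112736319 (chr12:112736309-112736329): aagcctttgtCATCGagttct
site at 112738068 (chr12:112738058-112738078): ggtcagatggCGGCCgaggcc
site at 112745458 (chr12:112745448-112745468): ggagctgctgCAGAGtccatc

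The third set holds the sites of 1-cell embryos, together with the site at 112744841 above. The first of them was listed in the embryo alone.
site at 112735477 (chr12:112735467-112735487): ggaaaccccgCAGCCtccaag
site at 112735507 (chr12:112735497-112735517): ggtgcctaccCAGGAagtgcc
site at 112735756 (chr12:112735746-112735766): cctgctgcgcCGGGAtggccc
site at 112740949 (chr12:112740939-112740959): cagatgatgaCGAGGaagagc
site at 112743064 (chr12:112743054-112743074): gcccatctctCGGGAatgtgc

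None of the 28 sites carried CUCNA, and all were counted as Type I. This class is given to every site without CUCNA, whatever its G content, so it does not show that NSUN2 acted there. The motif was rare in the transcript, with 31 of 2038 other C, so a count of 0 among 28 sites is not read as a result. If the sites were independent, which they are not, a count of 0 would allow a Type II share of up to 10.7% (3 counts). At 20 of the 28 sites (71.4%) 2 or more G were found at positions +1 to +4, with GGGC after the strongest site at 112744841 and GGGG after the site at 112743019. Of the 28 sites, 12 (42.9%) had 3 or 4 G at positions +1 to +4, against 111 of 2038 other C of the transcript (5.45%). The mean number of G there was 2.14 (SD 0.970 across 28 sites) at the sites and 1.05 (SD 0.857 across 2038 C) at the other C. G was most frequent at +2, with 67.9% of the sites and 31.4% of the other C, followed by +3 with 60.7% and 31.1%. At +1 it was found at 39.3% of the sites and 12.6% of the other C. The embryo site at 112735477 had 1 G and the site at 112740854, at 11.3% and 17.3% in the oocytes, had none, so G-rich bases were not shared by every site. These are descriptions over C of one transcript, which share sequence and are not replicates.

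**Figure D1:**
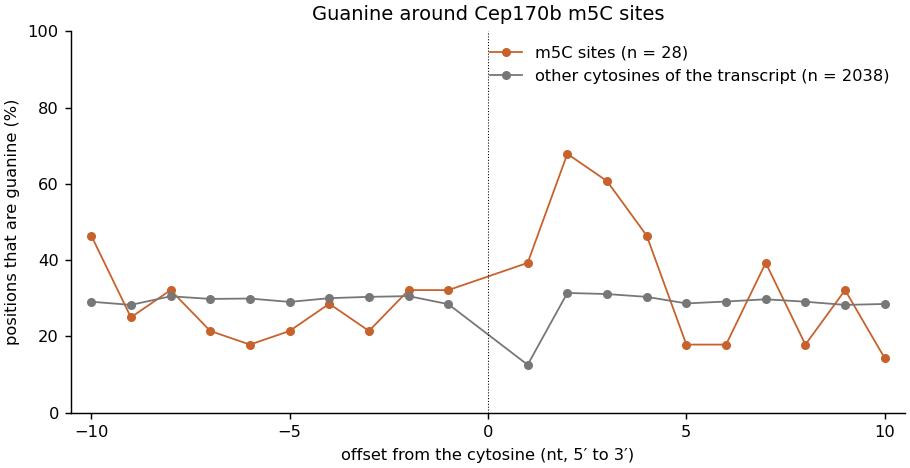
Share of positions that are guanine (percent, y axis) at each offset in nt from the cytosine (x axis), for the 28 m5C sites and 2038 other cytosines of the Cep170b transcript. The site curve stands at 67.9% at offset +2 against 31.4%, and returns to 17.9% at +5.

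Folding of the transcript in windows of 50 nt on either side of a C showed where the sites lie in predicted hairpins. The bases at +1 to +4 were predicted as paired in 78.6% of positions at the 28 sites and in 56.7% at 2014 other C of the transcript. In 60.7% of positions they formed the opening (5′) strand of a helix, against 27.9%. All 4 bases were paired at 15 of the 28 sites (53.6%) and at 445 of the other C (22.1%). The C itself was paired at 18 of 28 sites, 64.3% against 59.4%, but in windows of 100 nt on either side at 57.1% against 62.0%. The base before it was paired at 42.9% against 58.3%. Within 10 nt of the site, pairing was highest at +2, with 85.7%, and lowest at +6, with 35.7%. Upstream it reached 82.1% at -10. The site at 112740854, which had no G after the C, also had 0 of these 4 bases paired. The mean folding energy of the windows was -32.7 kcal/mol (SD 6.69 across sites) and -31.5 kcal/mol (SD 9.37 across C), and in the longer windows -69.2 and -70.2 kcal/mol, so the order was not the same at both lengths.

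**Figure D2:**
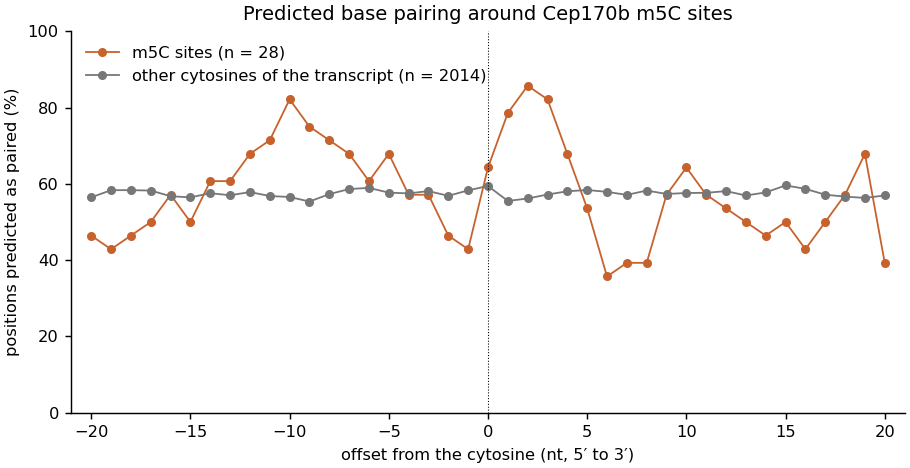
Share of positions predicted as base-paired (percent, y axis) at each offset in nt from the cytosine (x axis), in minimum free energy structures of windows of 50 nt on either side, for 28 m5C sites and 2014 other cytosines of the transcript. At the sites pairing rises from 42.9% at -1 to 85.7% at +2 and falls to 35.7% at +6, while at the other cytosines it lies between 55.4% and 59.4% within 10 nt.

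The sites were placed on the transcript Cep170b-202 (chromosome 12, 112722174 to 112746592, 19 exons, 6641 nt, GC content 60.7%), one of the transcripts with the longest coding sequence (CDS). Of the 28 sites, 23 lay in the CDS (82.1%, against 73.5% of all C of the transcript) and 5 in the 3′ untranslated region (UTR) (17.9% against 22.3%). No site lay in the 5′ UTR or in exons 1 to 7, and the 292 C (14.1% of 2072) upstream of the first site at nt 939 carried none. Exons 8, 9, 11 and 12 held 3, 5, 2 and 6 sites, exons 13 and 14 held 3 and 2, and exon 19, the last one, held 7. In the CDS, 10 sites fell on the first, 3 on the second and 10 on the third codon position, or 43.5%, 13.04% and 43.5%, against 30.8%, 33.3% and 36.0% of the other C of the CDS. Neighbouring sites were 13 to 667 nt apart (median 103 nt), and 11 of the 27 neighbouring pairs lay within 60 nt, so that many sites can be covered by the same RNA fragments and are not independent measurements.

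**Figure D3:**
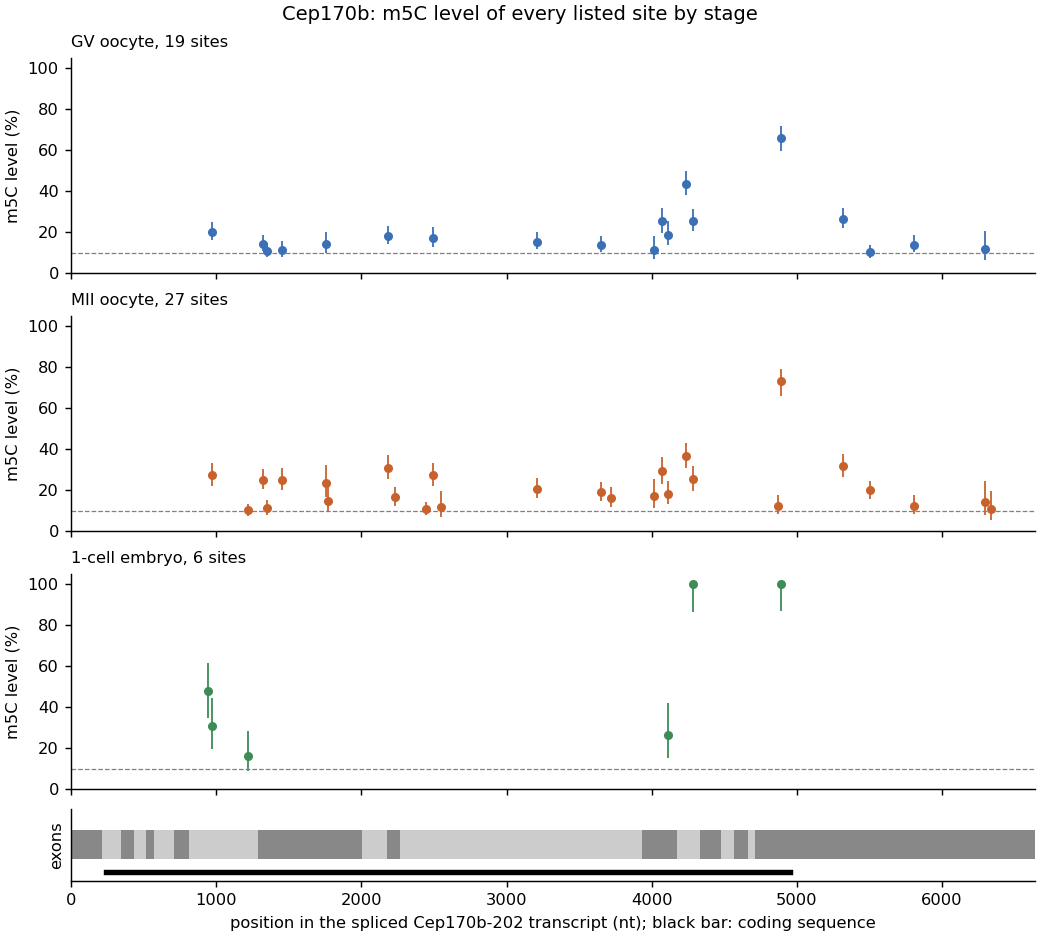
m5C level (percent, y axis) of every listed Cep170b site by its position in the spliced transcript (nt, x axis), one panel per library. Bars are 95% Wilson intervals, the dashed line is the level minimum of 10%, and boxes below are exons. The site at nt 4890 is the highest in both oocytes, and the embryo panel is empty between nt 1218 and nt 4112.

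In the number of listed sites, only Lama5, with 23, exceeded Cep170b in GV oocytes, where 4 genes in all had 19 sites. In MII oocytes Cep170b ranked 4 of 6736 genes. In 1-cell embryos it ranked 1089 of 6407 genes, among 333 genes with 6 sites each. Long transcripts offer more C, and the C of the longest-CDS transcript were counted for the 45 genes with at least 15 MII oocyte sites. Cep170b had 13.03 MII oocyte sites per 1000 C, the rank 4 of 45, with a median of 7.50. In 1-cell embryos it had 2.90 sites per 1000 C. Of these 45 genes, 14 had fewer embryo sites than Cep170b, and the median was 12 sites (quartiles 5 and 20). The share of C that was covered is not known from the lists.

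The median level of the Cep170b sites was 15.5% in GV oocytes (19 sites, range 10.2% to 66.1%), 19.1% in MII oocytes (27 sites, 10.2% to 73.1%) and 39.3% in 1-cell embryos (6 sites, 16.4% to 100%). All listed sites had medians of 19.5%, 19.8% and 23.8%. Most Cep170b sites were weakly methylated, with 13 of 19 sites under 20% in GV oocytes and 15 of 27 in MII oocytes. A level of 50% or more was found at 1 site in each oocyte. Coverage was high for the oocyte lists, with a median of 265 reads (83 to 343) in GV oocytes and 228 reads (69 to 423) in MII oocytes, against 121 and 107 reads for all sites. The gene was selected for many oocyte sites, and a listed site needs 20 reads, so the selection itself favours high oocyte coverage. In 1-cell embryos the median was 43.5 reads (24 to 55), below the 58 reads of all sites. Intervals given here cover counting error only, since reads without molecular identifiers are not independent molecules.

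The strongest site, at 112744841 (nt 4890, exon 19), lay in the CDS, 68 nt from its 3′ end. It stood at 66.1% (59.6% to 72.0%) of 224 reads in GV oocytes, 73.1% (66.0% to 79.2%) of 171 reads in MII oocytes and 100% (86.7% to 100%) of 25 reads in 1-cell embryos. A site 16 nt upstream, at 112744825, was listed in MII oocytes alone, at 12.4% of 210 reads, so neighbouring C differed widely in level.

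The next site in GV oocytes, at 112743019 (nt 4241, exon 14), stood at 43.8% (38.0% to 49.7%) of 274 reads in GV oocytes and 36.8% (31.1% to 43.0%) of 247 reads in MII oocytes. It was the one site whose value was lower by over 5 points in MII oocytes, but the interval of the difference, -15.2 to 1.48 points, included 0. A site 45 nt downstream in the same exon, at 112743064, stood at 25.5% of 239 reads and 25.3% of 198 reads. The site at 112740911 (exon 13) stood at 25.4% of 193 reads in GV oocytes and 29.2% of 178 reads in MII oocytes, and the 3′ UTR site at 112745268 at 26.6% of 305 reads and 31.8% of 255 reads. The intervals of both differences included 0.

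Whether levels rose on oocyte maturation was examined at the sites listed in both oocytes, and all 19 GV oocyte sites of Cep170b were listed in MII oocytes. The level was higher in MII oocytes at 15 of 19 sites by value (78.9%), with a median difference of 5.35 points (range -6.95 to 13.7). Over all shared sites, 9970 of 12954 (77.0%) were higher by value, so this share was near that of the whole list. Unconverted and converted reads were compared with a two-sided Fisher's exact test, adjusted over all 12954 shared sites, and 5 of 19 sites (26.3%) were higher. Of all 12954 sites, 19.6% were called higher and 0.965% lower, so the share in Cep170b was near that of the whole list, and so was its median difference, with 4.87 points over all shared sites. Called lower were 0 of the 19 sites, and none of the 4 sites with a lower value reached an unadjusted p under 0.05. At shared sites with the coverage of the Cep170b sites (69 to 343 reads in both lists), 15.04% of 5911 were called higher and the median difference was 4.70 points. The test compares 2 libraries and not 2 conditions.

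The largest difference was at 112736319 (nt 1451, exon 9), which stood at 11.4% (7.99% to 16.0%) of 246 reads in GV oocytes and 25.1% (20.0% to 31.0%) of 239 reads in MII oocytes. It was higher by 13.7 points, with a 95% interval of 6.89 to 20.5 (Fisher's exact test, adjusted p = 0.00117). The site at 112737585 (nt 2186, exon 11) stood at 18.3% of 278 reads and 30.9% of 236 reads, higher by 12.6 points (5.13 to 20.0, adjusted p = 0.00786 by the same exact test). The site at 112736189 (nt 1321, exon 9) stood at 14.5% of 310 reads and 25.1% of 287 reads, higher by 10.6 points (4.19 to 16.9, adjusted p = 0.0103 by the exact test). These 3 sites lay in exons 9 and 11, but the site between the 2 called ones of exon 9, at 112736216, stood at 10.8% of 305 reads and 11.1% of 306 reads. The site at 112738068 (nt 2495, exon 12) stood at 17.2% of 233 reads and 27.2% of 228 reads and passed narrowly, with 10.0 points (2.44 to 17.5, adjusted p = 0.049 by the exact test). In the 3′ UTR, the site at 112745458 (nt 5507) stood at 10.2% of 343 reads and 19.9% of 322 reads, higher by 9.67 points (4.26 to 15.1, adjusted p = 0.00455 by the exact test). Only the sites at 112736319 and 112745458 were also called with the Benjamini-Yekutieli adjustment, and none was called with reads divided by 5, as if each molecule had been read 5 times.

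**Figure D4:**
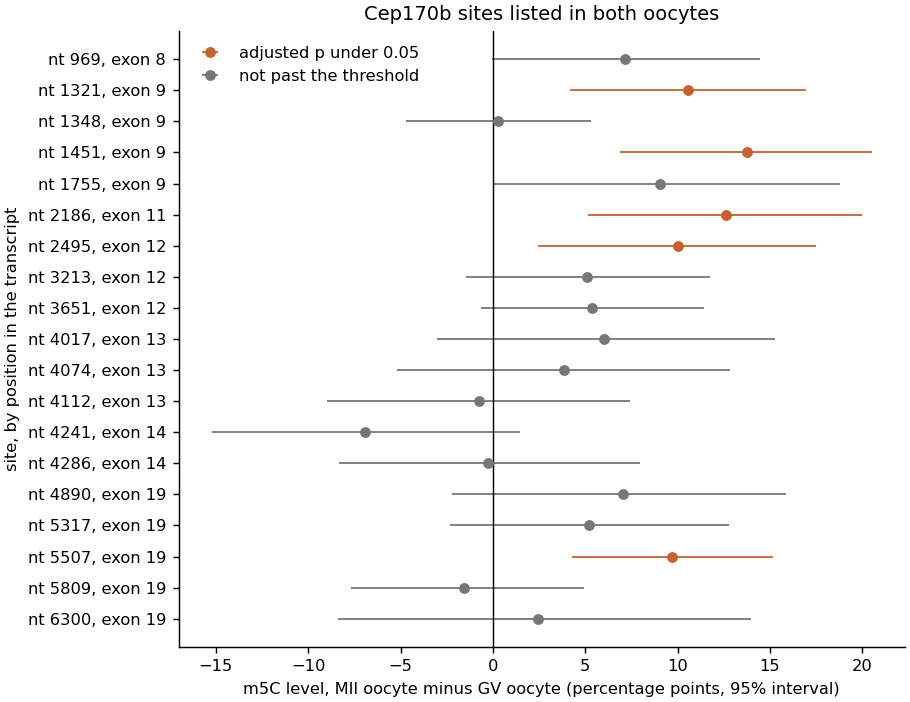
Difference in m5C level between MII and GV oocytes (percentage points, x axis) with its 95% interval for the 19 Cep170b sites listed in both, from the 5′ end (top) to the 3′ end of the transcript. The 5 sites with adjusted p under 0.05 are marked, 4 of them in exons 9 to 12 and 1 in the 3′ UTR, and the 3 sites from nt 4112 to nt 4286 lie below 0.

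By value, the differences varied along the transcript. In exons 9 to 12, all 8 shared sites were higher in MII oocytes by value, by 0.29 to 13.7 points with a median of 9.54 points. Of all sites shared by the 2 oocyte lists, 77.0% were higher by value. In exons 13 and 14, 2 of 5 shared sites were higher, with differences of -6.95 to 5.98 points and a median of -0.27 points. The 4 shared sites of the 3′ UTR had a median difference of 3.83 points. The grouping of exons was chosen after the values were seen, and the difference between the groups was not tested. In exons 13 and 14 levels in GV oocytes were higher, with a median of 25.4% against 14.4% in exons 9 to 12, while the median levels of all MII oocyte sites there were 25.3% and 19.1%. Across the 19 shared sites, which share reads and libraries, Pearson's r of the levels was 0.922 and Spearman's rho 0.805, and r was 0.681 without the 2 sites farthest from the median GV oocyte level.

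The 8 sites listed in MII but not in GV oocytes stood at 10.2% to 16.5% in MII oocytes (median 12.2%, 75 to 423 reads), all close to the minimum of 10%. Each lay within 103 nt of a site listed in GV oocytes, at which 83 to 312 reads were found, and 6 of the 8 within 60 nt. The strongest were at 112737630 (exon 11), at 16.5% of 243 reads, and at 112739296 (exon 12), at 16.1% of 224 reads. The rise in number from 19 to 27 was thus made of weak sites, whose level in GV oocytes is not given by the list.

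In 1-cell embryos, the 6 sites lay in exons 8, 13, 14 and 19, and none of the 13 MII oocyte sites of exons 9 to 12 and none of the 5 sites of the 3′ UTR was listed. The site at 112735477 (nt 939, exon 8), at 48% (34.8% to 61.5%) of 50 reads, was listed in the embryo alone. The neighbour 30 nt downstream, at 112735507, was listed at each stage, with 20.3% (16.2% to 25.1%) of 310 reads in GV oocytes, 27.5% (22.1% to 33.5%) of 233 reads in MII oocytes and 30.6% (19.5% to 44.5%) of 49 reads in the embryo. The oocytes were thus deeply read close to the embryo-only site, and the embryo interval at 112735507 overlapped that of MII oocytes.

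The site at 112735756 (nt 1218, exon 8) stood at 10.2% (7.63% to 13.4%) of 423 reads in MII oocytes and 16.4% (8.86% to 28.3%) of 55 reads in the embryo, with overlapping intervals. The site at 112740949 (nt 4112, exon 13) had overlapping intervals at the 3 stages, with 18.8% (13.7% to 25.4%) of 170 reads, 18.1% (13.1% to 24.4%) of 177 reads and 26.3% (14.97% to 42.0%) of 38 reads. At 112743064 (nt 4286, exon 14) the 24 embryo reads were all unconverted, which gives 100% (86.2% to 100%), after 25.5% (20.4% to 31.4%) in GV oocytes and 25.3% (19.7% to 31.7%) in MII oocytes. This interval did not overlap those of the oocytes, nor did that of the 112744841 site described above, which also stood at 100%. At the other 2 of the 4 sites listed at every stage the intervals overlapped. The share of such sites in the whole lists was not computed, so these counts are not a trait of Cep170b.

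Both sites at 100% had 25 reads or fewer. In the whole 1-cell embryo list, 312 of 4263 sites with 20 to 30 reads (7.32%) were at 100%, against 6 of 1596 (0.376%) in MII oocytes and 1 of 1064 (0.094%) in GV oocytes. The number of molecules behind such reads is not known, and its part in these values was not tested. The site at 112743019, which lies 45 nt upstream of the site at 112743064 and stood at 36.8% or more in the oocytes, was not listed in the embryo.

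**Figure D5:**
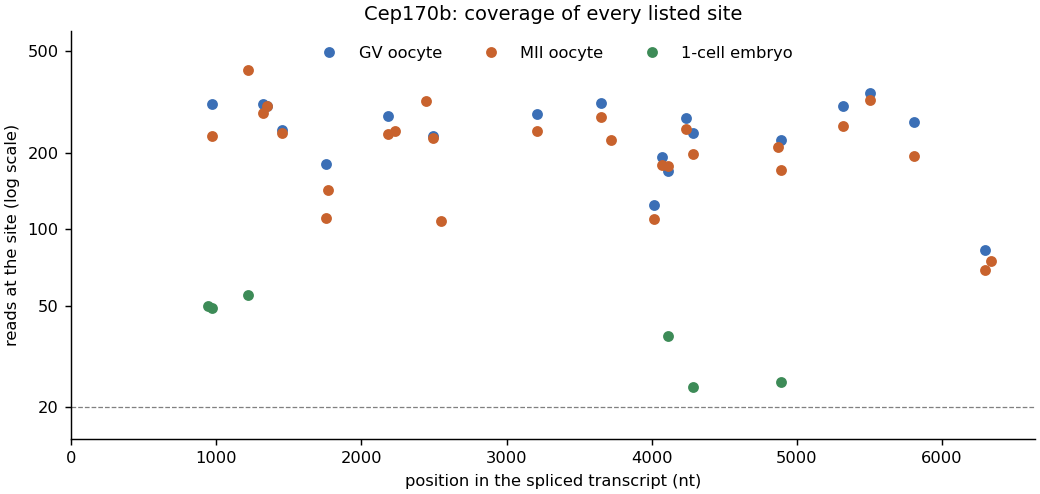
Reads at each listed Cep170b site (y axis, log scale) by position in the spliced transcript (nt, x axis), for the 3 libraries, with the minimum of 20 reads as a dashed line. Oocyte sites lie between 69 and 423 reads, and the 6 embryo sites between 24 and 55 reads.

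Coverage of the embryo sites was low in Cep170b for its oocyte coverage. The gene was selected for few embryo sites, and a listed site needs 20 reads, so the selection itself favours a low ratio. The ranks below are therefore descriptions. From MII oocytes to 1-cell embryos the ratio of reads at the 5 shared sites was 0.121 to 0.215 (median 0.146), against a median of 0.318 (quartiles 0.209 and 0.472) over 8015 shared sites, of which 12.2% had a lower ratio than the Cep170b median. Among 554 genes with at least 4 shared sites, 55 had a lower median ratio. From GV to MII oocytes the median ratio was 0.887, close to the 0.867 of all shared sites. The lists hold no expression values, so the amount of the transcript in the embryo is not known from them. At the median embryo coverage of 43.5 reads, the need for 5 unconverted reads sets a lowest level of 11.5%, and 3 of the 22 MII oocyte sites missing from the embryo list stood below this. This coverage is that of listed sites alone. Missing C may have had fewer reads, so more of the 22 may be missing through depth. At 9 of the 22 the level in MII oocytes was 20% or more, with a highest level of 36.8%. The lists do not tell whether these C had under 20 reads or a lower level in the embryo.

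The unconverted background of the gene, recovered from the deposited p-values, was 0.393% in GV oocytes, 0.601% in MII oocytes and 0.962% in 1-cell embryos. The medians over genes were 0.264%, 0.367% and 0.354%. Cep170b thus stood above 76.3%, 80.5% and 94.6% of the genes in its background, which remained far below the level minimum of 10%. Whether reads at the gene's own m5C sites enter this rate is not known from the lists. The gene was selected for many oocyte sites, so these ranks are descriptions. The part of this background in the levels was not tested.

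The paralogue Cep170 carried a single site (chromosome 1, position 176813946, minus strand), at 13.3% (6.26% to 26.2%) of 45 reads in GV oocytes and 12.5% (5.86% to 24.7%) of 48 reads in MII oocytes, and none in 1-cell embryos. Of 72 other genes of the centrosome and spindle poles, Cep170 among them, 58 had a listed site at some stage. Those with a site numbered 45, 53 and 45 in the order of the stages, with a median of 2, 2 and 3 sites, which equals the medians of all genes in the lists, and with at most 8, 12 and 11 sites, so each stayed below the oocyte counts of Cep170b. The most sites over the lists were found in Cep164, a protein of the distal appendages of centrioles (8, 11 and 9 sites), Pcnt, the scaffold pericentrin (5, 8 and 11 sites), and Cep250, a protein linking centrioles (7, 12 and 1 sites). As in Cep170b, few sites were listed for Cep250 in the embryo, with 47 reads at its median MII oocyte site and 21 reads at its embryo site, while Pcnt had more sites there than in the oocytes. Fewer sites in the embryo than in MII oocytes were found in 27 of these genes and more in 23. For these counts, and for the 58 genes with a site, the share over all genes was not computed. They are therefore not read as a trait of centrosome genes. Of their 98 sites shared by the oocytes, 21 (21.4%) were higher in MII oocytes by the exact test above and 0 lower, against the 19.6% and 0.965% of all sites.

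The genes nearest to Cep170b in their 3 site counts, by the distance on the log2(sites + 1) scale, were Wdfy3 (19, 24 and 4 sites in GV oocytes, MII oocytes and 1-cell embryos), Zfyve26 (17, 19 and 5), Reln (15, 19 and 9), Plxnb1 (16, 15 and 5) and Vps13d (18, 16 and 4). Their distances ran from 0.51 to 0.87. Wdfy3 and Zfyve26 encode large proteins with a lipid-binding zinc finger, Reln a secreted matrix protein, Plxnb1 a semaphorin receptor and Vps13d a lipid transfer protein. Their transcripts were longer, with 8649 to 15849 nt, and held 4.24 to 7.21 MII oocyte sites per 1000 C, below the 13.03 of Cep170b. Their embryo sites had median coverages of 28 to 41 reads. These genes were chosen for site counts near those of Cep170b, among them few embryo sites. A listed site needs a minimum of reads, so this choice itself favours low embryo coverage. The medians are therefore descriptions and are not read as a shared trait.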

How the data were processed

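RNA bisulfite sequencing lists of GV oocytes, MII oocytes and 1-cell embryos were analysed, with 1 library per stage. Per the methods of the study and the submitters' processing notes, reads were trimmed with cutadapt 1.13 and Trimmomatic 0.36 and mapped with HISAT2 (genome) and Bowtie2 2.2.9 (transcriptome) after conversion in silico (mm10, which is GRCm38, with Ensembl 87). The deposited coverage is a raw count, of reads showing C or T at the site. The deposited m5C level is a fraction, printed here in percent. The deposited p-value comes from a binomial test by the authors, in which each gene had its own conversion rate. Each list held sites with at least 20 reads, a level of 10% and 5 unconverted reads, so a missing site may be unmethylated, weakly methylated or not covered. Reads at listed sites summed to 4475058, 5285011 and 2616279 in the order of the stages. The 1-cell embryo list differs in coverage and level from the study's supplement at the sites compared, and its values describe the deposited library alone.

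Unconverted reads were taken as level times coverage, which was whole to within 2.9e-05 reads. Sites were placed on GENCODE M21 (GRCm38), and each Cep170b site was checked to be C on the plus strand of the genome. Wilson intervals (95%) were computed for levels and Newcombe intervals for differences. Levels were compared with Fisher's exact test (two-sided) at each shared site, with Benjamini-Hochberg adjustment over all shared sites and a threshold of 0.05. The code was first run on simulated reads drawn independently. That run does not cover repeated reads of one molecule or differences between libraries. The background of a gene is the rate at which the binomial test returns the deposited p-value. Windows were folded with RNAfold (ViennaRNA 2.7.2, 37 °C). Computation was in scipy 1.17.1, pandas 2.3.3 and numpy 2.4.6 under Python 3.11.15, and plots in matplotlib 3.10.9. The alternatives were coverage minimums of 50 and 100 reads, a level minimum of 20%, reads divided by 5, the Benjamini-Yekutieli adjustment, 3 bases in place of 4, windows of 100 nt on either side, CUCCA alone and distances on square roots.

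The gene, the lists and the tests were chosen with earlier results of these data known. Sites named singly were those of 1-cell embryos, those past the test and the 5 with the highest MII oocyte level, and others were named after their values were seen. Genes named were Cep170, the 3 centrosome genes with most sites, and the 5 nearest in site counts, and Lama5 was named after its value was seen.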

Additional observations from a re-analysis of the deposited data

How the results depend on the processing

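The number of Cep170b sites called higher in MII oocytes was 5, and stayed 5 at coverage minimums of 50 and 100 reads. It was 0 of 6 sites at a level minimum of 20% in both lists, 0 with reads divided by 5 and 2 with the Benjamini-Yekutieli adjustment, while over all shared sites the calls were 2538 higher and 125 lower, with 1539 and 82, 87 and 3, and 1333 and 59 under these settings. A minimum of 20% removes weak sites by construction, and left 6 GV oocyte and 12 MII oocyte sites with median levels of 26.0% and 27.3%. The 1-cell embryo kept 2 of its 6 sites at 50 reads and 0 at 100 reads, so its description rests on sites of low coverage. With distances on square roots, 3 of the 5 nearest genes were the same. The other 25 values recomputed for the main comparisons included the median difference, the count of lower sites, the G share, the paired share at +1 to +4 and the Type II count. Each stayed within an interval or within 1.5 times. For medians this interval was taken across sites and is not counting error. For the median level of the 1-cell embryo it ran from 16.4% to 100%, the range of its 6 sites. No subset of these sites could leave it, so that median was not checked. The pairing of the C itself and the folding energy changed order in longer windows. No paired analysis was possible because each stage has 1 library, which also leaves no replicate to leave out.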
